A study of Homo sapiens with 2 samples.

Results

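The cardiac transcription factor genes NKX2-5, GATA4, GATA6, MEF2A, MEF2C, MEF2D, TBX3, TBX5, HAND1 and HAND2 were followed in A549 cells with and without MYOCD overexpression. They were taken by gene symbol from a deposited expression table, and all 10 were found, each on 1 row, among 56255 symbols. A549 is an established human lung adenocarcinoma cell line. One group is wild-type A549 with no treatment (WT) and the other is A549 overexpressing MYOCD (MYOCD), with 1 library of total RNA in each. The sources used here do not give the vector, how long MYOCD was overexpressed, or whether the MYOCD cells are 1 clone.

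MYOCD encodes myocardin, a coactivator that binds serum response factor (SRF) in cardiac and smooth muscle. The genes described here encode DNA-binding proteins that act together in the embryonic heart. NKX2-5 is a homeodomain protein, GATA4 and GATA6 are zinc finger proteins, the MEF2 proteins share the MADS domain with SRF, TBX3 and TBX5 are T-box proteins, and HAND1 and HAND2 are basic helix-loop-helix proteins. Several of them work outside the heart as well: GATA6 takes part in the formation of lung and gut endoderm, and MEF2A and MEF2D are present in many tissues.

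Values are RPKM, which are reads scaled to the length of the gene and the size of the library, so levels may be set beside each other between genes. A change is given as log2((MYOCD + 0.5)/(WT + 0.5)), where 0.5 RPKM is a pseudocount that pulls the change of low genes toward 0. A gene was counted when it had at least 1 RPKM in at least 1 library, and it was called higher or lower at 2-fold or more on this scale. With 1 library in each group there is no replicate error and no test, so a call is a rule of size. The total was 886700 RPKM in WT and 880876 RPKM in MYOCD, and sequencing depth is unknown. The targeted gene MYOCD had 0.304 RPKM in WT and 48.6 RPKM in MYOCD, as the labels say. Of the epithelial markers, KRT8, KRT18, KRT19, EPCAM, CDH1 and CLDN4 passed the filter, led by KRT18 with 1647 RPKM in WT and 1134 RPKM in MYOCD. None was lower at 2-fold, and EPCAM was called higher (0.889 RPKM in WT and 2.57 RPKM in MYOCD). CDH2, the N-cadherin gene, which is known as a mesenchymal marker but was listed with them for A549, was also called higher, with 2.76 RPKM in WT and 24.3 RPKM in MYOCD. The summed level of the 7 genes was 3212 RPKM in WT and 2259.6 RPKM in MYOCD.

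Among the 10 genes, NKX2-5 was the 1 gene higher in MYOCD by 2-fold or more and none was lower. MEF2D, MEF2A and TBX3 were the most abundant in both libraries and lay under 2-fold. GATA4 and GATA6 were present near 1 RPKM, with higher values in MYOCD that stayed under 2-fold. HAND1, HAND2, MEF2C and TBX5 were under 1 RPKM in both libraries. In bulk RNA, fewer cells with a transcript and less of it per cell cannot be told apart.

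**Figure D1:**
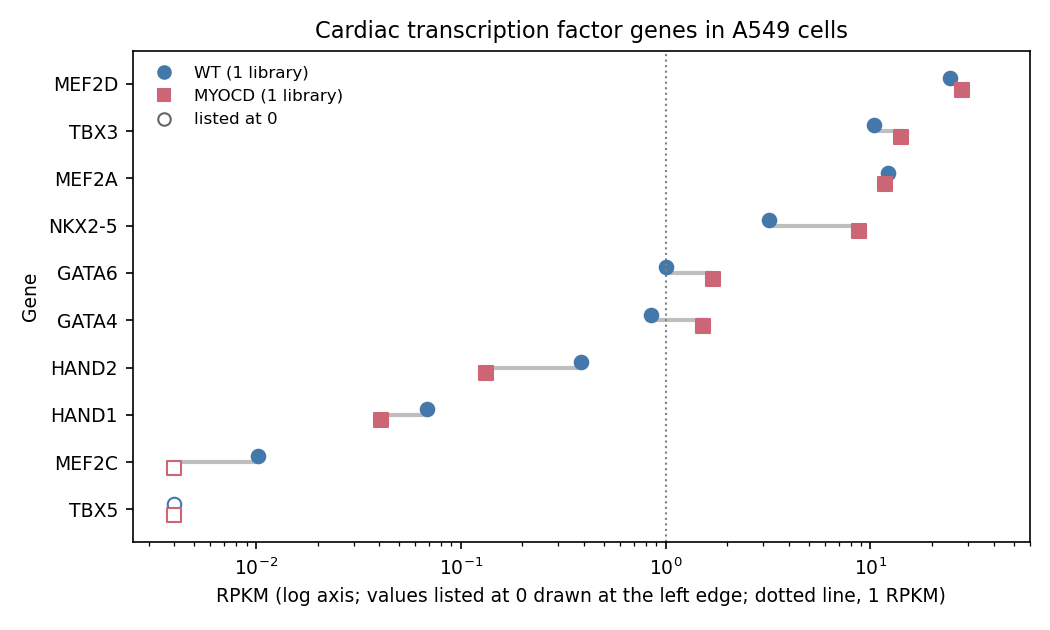
RPKM (log axis) of each of the 10 genes in the WT library (circles) and the MYOCD library (squares), ordered by mean level; open symbols are values listed at 0. NKX2-5 has the widest gap among the genes right of 1 RPKM, and MEF2C, TBX5, HAND1 and HAND2 lie left of it.

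The homeodomain gene NKX2-5, one of the earliest genes of the heart field, lies on chromosome 5 from 173232109 to 173235357 on the minus strand (GRCh38, GENCODE 29). It had 3.19 RPKM in WT and 8.77 RPKM in MYOCD. The ratio of the deposited values was 2.75 and the log2 change 1.33. Its level passed 48.0% of protein-coding genes in WT and 60.1% in MYOCD, so it moved from below to above the middle of the coding genes. Over all 17350 genes counted, 11.8% were called in either direction, 5.42% higher and 6.35% lower. Of protein-coding genes, 6.11% were called, and of those with 5 to 10 RPKM in the higher library, where NKX2-5 lies, 8.3% were called and 4.04% were called higher. A log2 change as high as that of NKX2-5 or higher was found in 185 of 12337 protein-coding genes counted, or 1.5%. The call of 1 among the 6 genes of the set that passed the filter is to be read against these shares. At 1.5-fold NKX2-5 was again the 1 gene of the set called, where 24.8% of all genes counted were called. GATA4 and GATA6 lay just under that line on the scale with the pseudocount, though the ratios of their deposited values were 1.79 and 1.70.

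MEF2D had the highest level of the set in both libraries, with MEF2A next in WT and TBX3 next in MYOCD. MEF2D, on chromosome 1 from 156463727 to 156500828, had 24.5 RPKM in WT and 28.0 RPKM in MYOCD, a log2 change of 0.19. MEF2A, on chromosome 15 from 99565417 to 99716466, had 12.2 RPKM in WT and 11.7 RPKM in MYOCD, a log2 change of -0.06. MEF2D was thus 2.0 times as abundant as MEF2A in WT and 2.38 times in MYOCD. MEF2C, the form best known from the developing heart and from skeletal muscle, had 0.0103 RPKM in WT and was listed at 0 in MYOCD. The remaining paralog MEF2B, whose exons are also part of the read-through gene BORCS8-MEF2B and whose value is therefore uncertain, had 0.489 RPKM in WT and 0.675 RPKM in MYOCD. Of the family's summed level of 37.3 RPKM in WT and 40.4 RPKM in MYOCD, MEF2A, MEF2C and MEF2D together held 98.7% and 98.3%, and MEF2C added next to nothing to it.

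TBX3, a T-box repressor of the cardiac conduction system, lies on chromosome 12 from 114670254 to 114684164. It had 10.5 RPKM in WT and 14.1 RPKM in MYOCD, a ratio of 1.35 and a log2 change of 0.41. TBX5, the activator of chamber and septum formation, is its neighbour on the same chromosome, from 114353931 to 114408442. TBX5 was listed at 0 in both libraries, as was TBX5-AS1, the noncoding gene that overlaps its start. The pair shows T-box genes of 1 chromosome region at unlike levels, with TBX3 above 10 RPKM and TBX5 at 0 in both libraries.

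The GATA genes were low in both libraries. GATA4, on chromosome 8 from 11676959 to 11760002, had 0.849 RPKM in WT and 1.52 RPKM in MYOCD, a ratio of 1.79 and a log2 change of 0.58. GATA6, on chromosome 18 from 22169443 to 22202528, had 1.01 RPKM in WT and 1.71 RPKM in MYOCD, a ratio of 1.70 and a log2 change of 0.55. The level of GATA6 was 1.19 times that of GATA4 in WT and 1.13 times in MYOCD, so the genes kept close to each other. GATA4 passed the filter through the MYOCD library alone. Among protein-coding genes with 1 to 2 RPKM in the higher library, 14.6% were called at 2-fold, a wider scatter than over all coding genes.

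The HAND genes, which in the embryo mark the left and the right ventricle, were the lowest family with a value in both libraries. HAND2, on chromosome 4 from 173524969 to 173530229, had 0.387 RPKM in WT and 0.132 RPKM in MYOCD. The ratio of these values was 0.342, and the log2 change with the pseudocount was -0.49. HAND1, on chromosome 5 from 154474972 to 154478264, had 0.0683 RPKM in WT and 0.0407 RPKM in MYOCD. Each gene had its lower value in MYOCD, but all 4 values lay under the filter, where the precision is unknown.

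**Figure D2:**
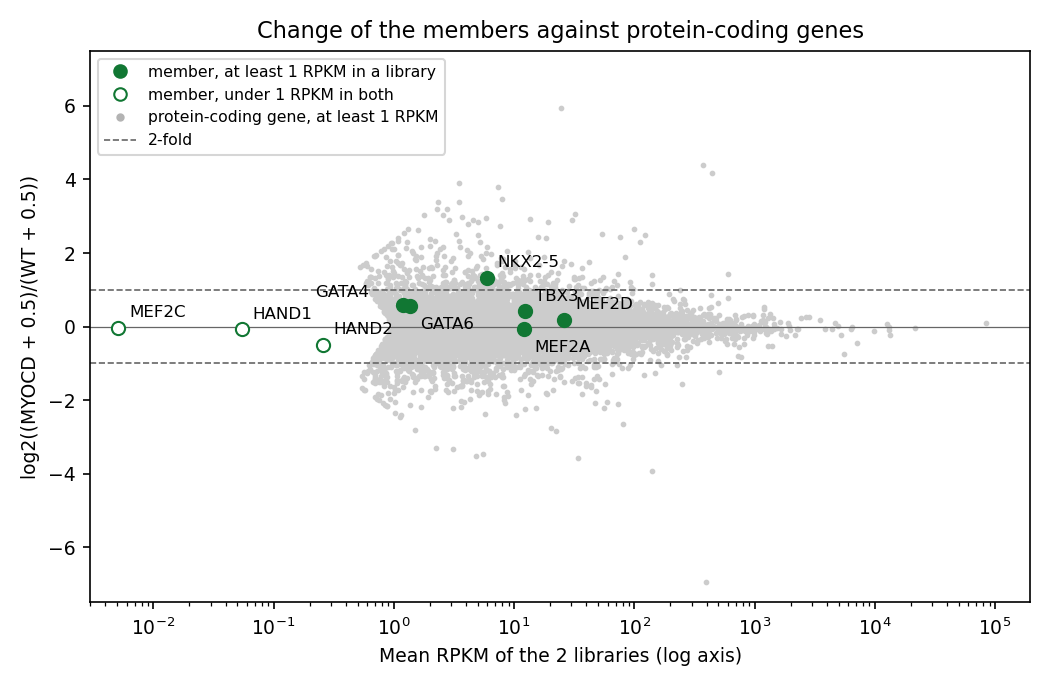
log2((MYOCD + 0.5)/(WT + 0.5)) against the mean RPKM of the libraries (log axis) for the cardiac genes (green; open where under 1 RPKM in both libraries; TBX5, at 0 in both, is not drawn) and for protein-coding genes with at least 1 RPKM in a library (grey). Of the green points NKX2-5 alone lies beyond the dashed 2-fold lines, while MEF2A, MEF2D, TBX3, GATA4 and GATA6 lie within the grey cloud and MEF2C lies far to its left.

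Over all 10 genes, 5 had a log2 change above 0, 4 had one below 0 and TBX5 was at 0, with a median of 0.09. The median of the 6 genes that passed the filter was 0.48, beside -0.00 over all genes counted. The genes under the filter were all at or below 0, and GATA4 was counted only through its MYOCD value. Summed over the 10 genes, the level was 52.8 RPKM in WT and 66.0 RPKM in MYOCD. MEF2D, MEF2A and TBX3 made up 89.6% of this sum in WT and 81.6% in MYOCD, and NKX2-5 made up 6.05% and 13.3%.

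The relatives of each family show which paralog was the most abundant as RNA. Among 7 NKX2 genes, NKX2-5 held 75.4% of the summed level in WT and 87.0% in MYOCD. NKX2-8 came next with 0.931 RPKM in WT and 1.28 RPKM in MYOCD, and NKX2-1, the lung and thyroid factor of the family, had 0.0812 RPKM in WT and was listed at 0 in MYOCD. Among 6 GATA genes, GATA3, known from T cells and from breast and trophoblast epithelium, led with 3.24 RPKM in WT and 4.47 RPKM in MYOCD. GATA2, a factor of blood and endothelial cells, had 1.20 RPKM in WT and 2.21 RPKM in MYOCD. GATA2, GATA3, GATA4 and GATA6 had log2 changes from 0.41 to 0.67, none of them at 2-fold. The remaining GATA genes were under the filter: GATA1 had 0.150 RPKM in WT and was listed at 0 in MYOCD, and GATA5 had 0.124 RPKM in both libraries.

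Among 13 TBX genes, TBX18, a factor of the epicardium and the sinus node, was the most abundant in both libraries, with 23.7 RPKM in WT and 16.4 RPKM in MYOCD, and TBX3 was the next. TBX2, the closest paralog of TBX3, was the 1 family relative called, with 0.534 RPKM in WT and 1.94 RPKM in MYOCD and a log2 change of 1.24. TBX2 passed the filter through the MYOCD library alone, and with a pseudocount of 1 RPKM it was under 2-fold. The summed TBX level was 37.97 RPKM in WT and 37.96 RPKM in MYOCD, while the share of TBX3 in it was 27.6% in WT and 37.2% in MYOCD. Over the 36 listed relatives, 35 symbols were found and 13 passed the filter. Of the 13 genes 1 was higher and none lower, where 11.8% of all genes counted were called. Of protein-coding genes counted, 6.11% were called, a share to be set beside each of the lists below as well. The median log2 change was 0.32 over the 13 genes, of which 3 passed through the MYOCD library alone, and 0 over the 35.

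**Figure D3:**
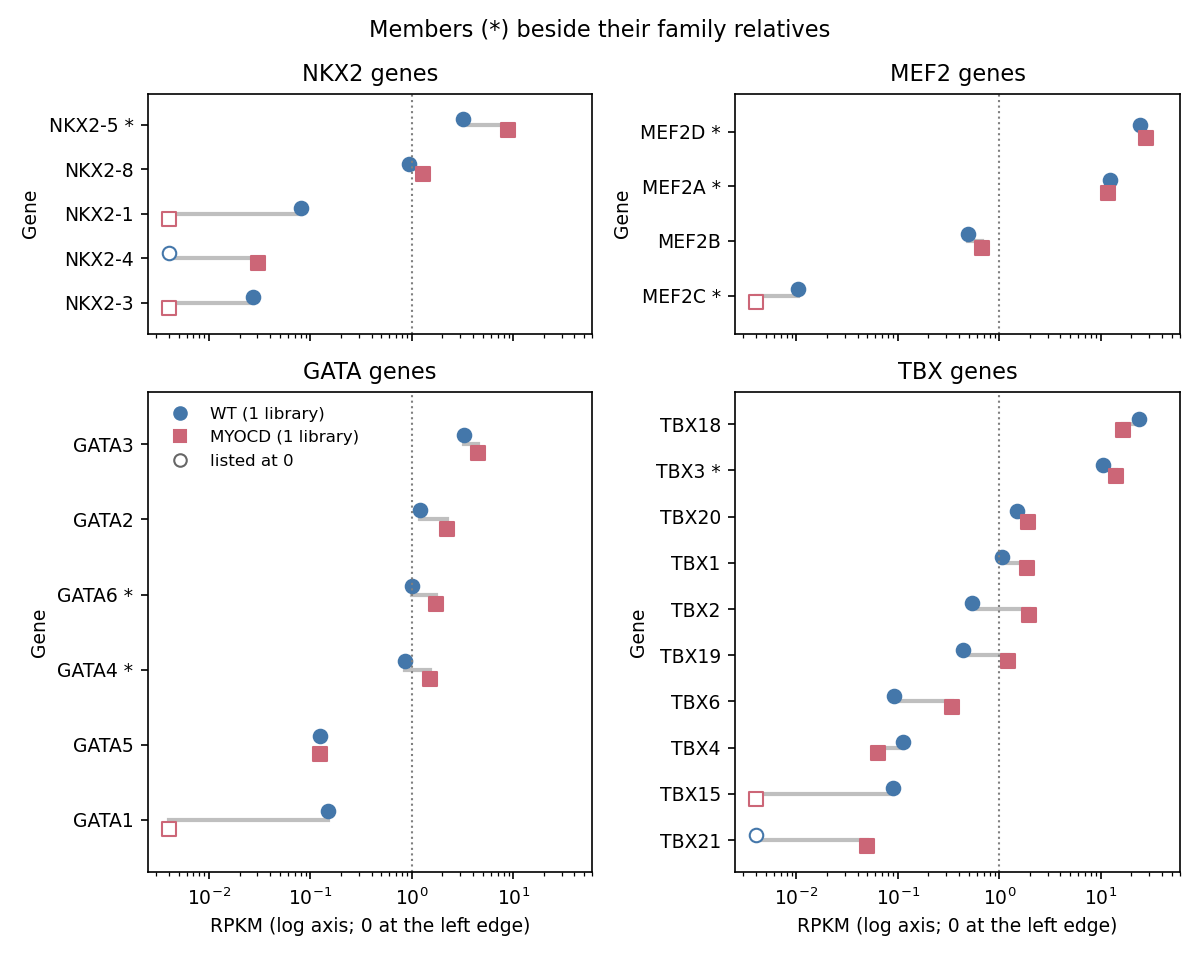
RPKM (log axis) in the WT library (circles) and the MYOCD library (squares) for the NKX2, MEF2, GATA and TBX genes with a value above 0 in a library; asterisks mark the genes of the set and open symbols values listed at 0. NKX2-5, MEF2D and MEF2A lead their families, GATA6 and GATA4 stand below GATA3 and GATA2, and TBX3 stands below TBX18.

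Other regulators of heart development were taken as a list of 21 genes that includes MYOCD itself. Of these 12 passed the filter, and 2 were called higher and 1 lower, where 11.8% of all genes counted were called. The median was 0.12, beside 0.10 over all 21. Apart from MYOCD, the higher gene was TBX2, the same gene as the relative called above, since this list shares 6 genes with the family relatives. MEIS1, a homeodomain cofactor, was the lower gene, with 6.93 RPKM in WT and 2.97 RPKM in MYOCD, and lay just under 2-fold with a pseudocount of 1 RPKM. SRF, the partner of myocardin, had 10.1 RPKM in WT and 11.2 RPKM in MYOCD, and TEAD1, the most abundant of the list, had 120 RPKM in WT and 103 RPKM in MYOCD. ISL1, a marker of the second heart field, was listed at 0 in both libraries. Leaving out genes under 5 RPKM in both libraries, the calls of this list were MYOCD and MEIS1.

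Partners of the set were the next list: class IIa histone deacetylases, which repress MEF2, FOG proteins, which bind GATA factors, and E proteins and ID proteins, which pair with or withhold partners from HAND. Of 21 genes 18 passed the filter, and 2 were called higher and none lower, where 11.8% of all genes counted were called. The median was 0.09, beside -0.08 over all 21. HDAC4, a repressor of MEF2 proteins, had 7.13 RPKM in WT and 16.6 RPKM in MYOCD, a log2 change of 1.16. Its relatives HDAC5 (5.47 RPKM in WT and 4.51 RPKM in MYOCD) and HDAC7 (21.1 and 18.5 RPKM) lay under 2-fold, and HDAC9 was under 1 RPKM in both libraries. The E protein gene TCF4 had 2.65 RPKM in WT and 7.75 RPKM in MYOCD, a log2 change of 1.39. The other E protein genes also had higher values in MYOCD under 2-fold: TCF3 had 32.4 RPKM in WT and 58.0 RPKM in MYOCD, and TCF12 had 41.0 and 58.1 RPKM. The ID genes had lower values in MYOCD under 2-fold, with log2 changes of -0.94 for ID2, -0.77 for ID4, -0.58 for ID1 and -0.55 for ID3. TCF4 was thus the 1 gene called among the E protein and ID genes.

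Genes that these factors are known to regulate in the heart were mostly near 0. Of 35 target genes 26 were under 1 RPKM in both libraries, and 10 of those were at 0 in both, among them the cardiac myosin genes MYH6, MYH7 and MYL7 and the cardiac actin gene ACTC1. Of the 9 that passed, 1 was called higher and 3 lower, where 11.8% of all genes counted were called. Each of these 4 calls was of a gene that passed the filter through 1 library alone, the 1 in which it was high. The median of the 9 was -0.45, while the median over all 35 was 0. The higher gene was POPDC2, a membrane protein gene of heart and skeletal muscle, with 0.244 RPKM in WT and 1.48 RPKM in MYOCD. Lower were ANKRD1 (10.5 RPKM in WT and 0.496 RPKM in MYOCD), TNNC1 (3.07 and 0.284 RPKM) and the myoglobin gene MB (2.49 and 0.611 RPKM). The gap junction gene GJA1 had 56.1 RPKM in WT and 51.9 RPKM in MYOCD. NPPA, the atrial natriuretic peptide gene and a target shared by NKX2-5, GATA4 and TBX5, had 0.0639 RPKM in WT and 0.244 RPKM in MYOCD. Both NPPA values lay under the filter, where the precision is unknown. Over all 35 target genes, 10 had a log2 change above 0 and 15 had one below 0. The calcium pump gene ATP2A2, which is not restricted to the heart, had 262 RPKM in WT and 273 RPKM in MYOCD. With at least 5 RPKM in a library, 4 target genes passed and ANKRD1 was the 1 called.

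Because GATA6 also belongs to the endoderm, lung and endoderm factors were listed beside it. Of 22 genes 11 passed the filter, and 3 were called higher and 1 lower, where 11.8% of all genes counted were called. The median was 0.25, beside 0.06 over all 22. SOX9, a factor of the distal lung tip, had 4.29 RPKM in WT and 11.9 RPKM in MYOCD. LPCAT1, an enzyme of surfactant lipid synthesis, had 30.2 RPKM in WT and 72.9 RPKM in MYOCD, and HNF4A was the remaining higher gene. The lower gene was ELF3. FOXA2, which acts with GATA6 in endoderm, had 12.2 RPKM in WT and 17.1 RPKM in MYOCD, and FOXA1 had 8.43 and 9.42 RPKM. The surfactant protein genes SFTPC and SFTPA2 were listed at 0 in both libraries.

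**Figure D4:**
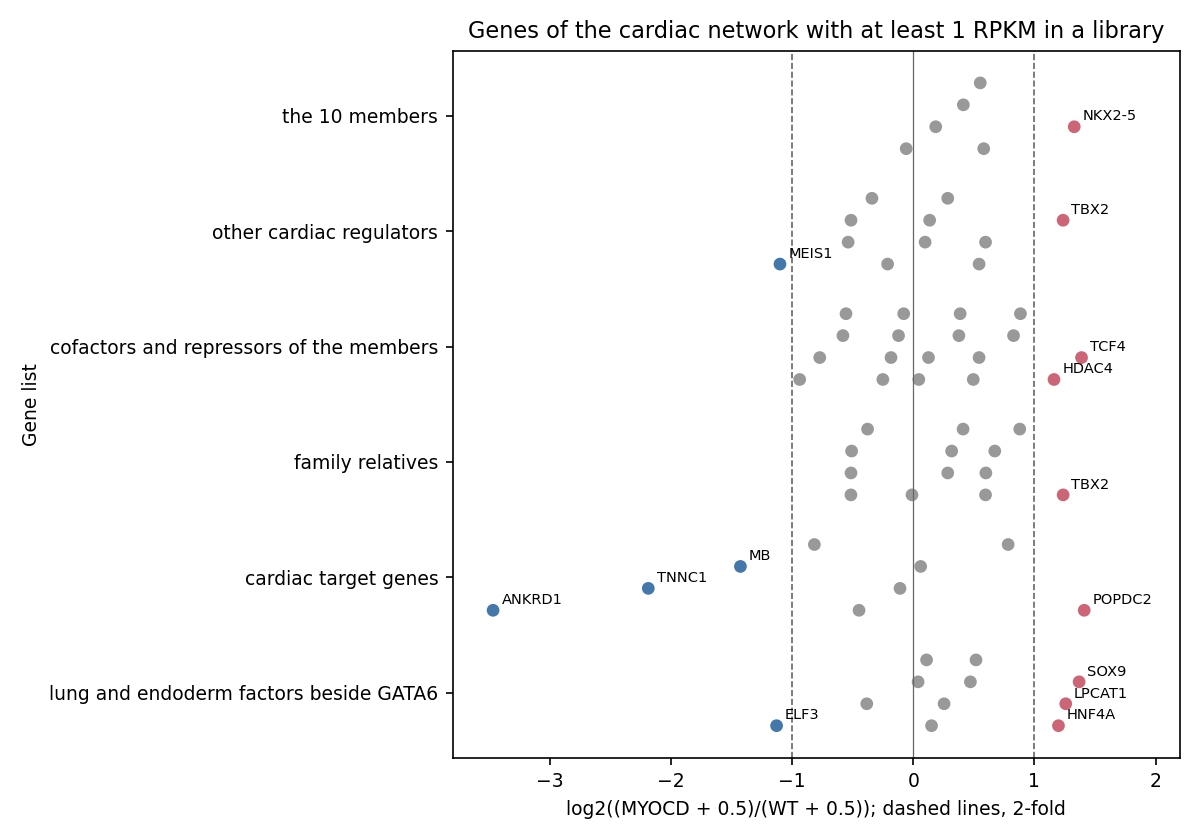
log2((MYOCD + 0.5)/(WT + 0.5)) of each gene with at least 1 RPKM in a library, by list; dashed lines mark 2-fold, coloured points are called higher (red) or lower (blue), and MYOCD itself (5.93) is left out. The 3 lower cardiac target genes lie on the left, and NKX2-5, TBX2, HDAC4, TCF4, POPDC2, SOX9, LPCAT1 and HNF4A lie right of the upper 2-fold line.

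Noncoding and coding genes that overlap the set or start within 10000 bases of it were examined next, since counting is not stated to use strand and reads of overlapping genes then cannot be told apart. There were 17 such genes beside 9 of the set, of which 10 had at least 0.1 RPKM in a library and 5 passed the filter. GATA6 is overlapped by 3 antisense genes with a value in both libraries. GATA6-AS1, on the opposite strand from 22164886 to 22169878, had 0.370 RPKM in WT and 2.24 RPKM in MYOCD, a ratio of 6.05 and a log2 change of 1.65. It shares 240 exonic bases with GATA6, or 6.08% of the GATA6 exons. At the other end of GATA6, the antisense gene RP11-627G18.1, from 22200619 to 22205229, had 0.170 RPKM in WT and 0.897 RPKM in MYOCD and shares 321 exonic bases with it. Between these, the antisense gene RP11-627G18.2 lies inside GATA6 with no shared exonic base and had 0.357 RPKM in WT and 0.420 RPKM in MYOCD. In ratio, GATA6-AS1 and RP11-627G18.1 exceeded GATA6 itself, which had 1.70. These ratios rest on low values: RP11-627G18.1 was under 1 RPKM in both libraries and GATA6-AS1 in WT, where the precision is unknown.

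At the HAND2 locus the antisense gene HAND2-AS1, from 173527270 to 173659696, had 0.384 RPKM in WT and 0.0629 RPKM in MYOCD, a ratio of 0.164. It shares 867 exonic bases with HAND2, or 24.1% of the HAND2 exons, and both genes of the pair were lower in MYOCD and under the filter. MEF2C-AS1, by contrast, had 1.26 RPKM in WT and 1.06 RPKM in MYOCD across from a MEF2C gene at or near 0. LYSMD4, which overlaps the end of MEF2A on the other strand over 11.1% of the MEF2A exons, had 4.65 RPKM in WT and 3.58 RPKM in MYOCD. NEIL2, a DNA repair gene that starts downstream of GATA4, had 13.1 RPKM in WT and 16.7 RPKM in MYOCD.

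**Figure D5:**
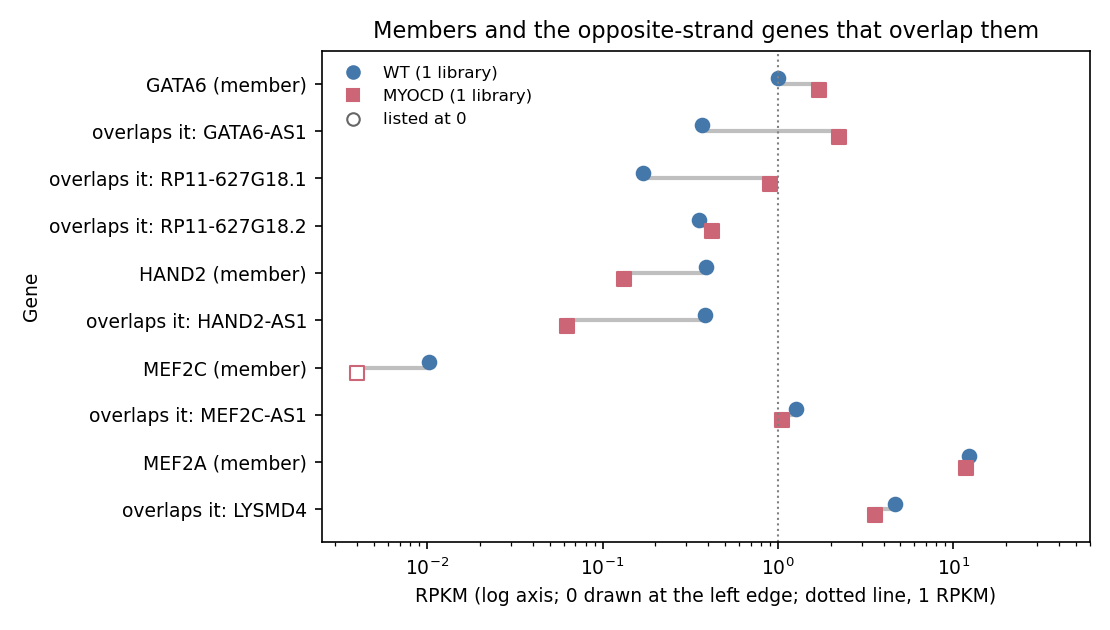
RPKM (log axis) in the WT library (circles) and the MYOCD library (squares) of GATA6, HAND2, MEF2C and MEF2A, each followed by genes on the opposite strand that overlap it. GATA6-AS1 and RP11-627G18.1 lie to the right in MYOCD together with GATA6, and HAND2-AS1 lies to the left together with HAND2.

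The start regions of HAND2 and GATA6 are shown because each lies within the antisense gene of the pair. Of the 48 HAND2-AS1 transcripts in GENCODE 29, 31 start within the 250 bases before the HAND2 start, between 173530371 and 173530479. The sequences are from RefSeq (GRCh38.p14), 5′ to 3′ on the strand of the named gene. The HAND2 window is chr4:173530230-173530479 on the minus strand. The GATA6 window is chr18:22169339-22169442 on the plus strand, which ends 1 base before the first annotated base of GATA6 in GENCODE 29 and lies within GATA6-AS1. The 9 GATA6-AS1 transcripts start between 22165862 and 22169878, and the 1 that starts closest to the first base of GATA6 does so at 22169452, outside the letters shown. Capitals mark every match, on either strand, to the motifs named in the next paragraph.
HAND2: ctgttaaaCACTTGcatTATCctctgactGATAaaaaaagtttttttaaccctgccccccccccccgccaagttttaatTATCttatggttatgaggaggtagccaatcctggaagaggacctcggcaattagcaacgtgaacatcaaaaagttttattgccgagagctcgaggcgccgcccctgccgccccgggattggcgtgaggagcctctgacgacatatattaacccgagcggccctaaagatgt
GATA6: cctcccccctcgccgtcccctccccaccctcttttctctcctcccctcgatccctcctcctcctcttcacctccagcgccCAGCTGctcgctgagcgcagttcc

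A window of 250 bases before a RefSeq start was found for 7 of the 10 genes. These were GATA6, MEF2A, MEF2C, MEF2D, TBX5, HAND1 and HAND2. The windows of MEF2D (156490688 to 156490937), MEF2C (88883185 to 88883434) and TBX5 (114408013 to 114408262) lie inside the GENCODE genes. Those of GATA6 and HAND1 lie partly inside. The match counts and base composition below are thus not all of bases upstream of the annotated gene. Motifs were searched on both strands in the 7 windows and in all 27305 windows of that length. The CArG box, which SRF binds, was matched in 0 of 7 windows and in 1.14% of all windows. The MEF2 site was matched in 0 of 7 and in 2.90% of all. GATA was matched in 3 of 7 (TBX5, HAND1 and HAND2) and in 46.5% of all, and the HAND2 window holds 3 such matches. The homeodomain core AAGTG was matched in 2 of 7 (MEF2C and HAND2) and in 37.9% of all. The E-box CANNTG, which basic helix-loop-helix proteins bind, was matched in 4 of 7 (GATA6, MEF2A, MEF2D and HAND2) and in 62.2% of all. In HAND2 the E-box and the AAGTG match cover the same bases. The T-box core GGTGTGA and TATAAA were matched in 0 of 7, and in 2.72% and 11.1% of all windows. The base composition ranged from 49.6% G and C in HAND2 to 82.8% in MEF2A, around a median of 58.0% over all windows. These matches are descriptions of letters and say nothing of binding in these cells.

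Among other cell types, cardiomyocyte, endothelial and blood markers were low, while some fibroblast and smooth muscle markers lay above them. Of 9 cardiomyocyte markers TNNI3 alone passed the filter (1.66 RPKM in WT and 0.729 RPKM in MYOCD), the summed level was 2.03 RPKM in WT and 1.24 RPKM in MYOCD, and MYH6, MYH7, ACTC1 and MYL7 were at 0 in both libraries. Of 7 fibroblast markers 2 passed, with a summed level of 5.70 and 15.8 RPKM of which COL1A1 held 3.05 and 14.3 RPKM, and DCN was at 0. COL1A1 was called higher, while the other passing marker THY1 had 1.91 RPKM in WT and 0.959 RPKM in MYOCD and PDGFRB had 0.432 and 0.00968 RPKM, so the higher fibroblast sum was that of COL1A1. Of 6 smooth muscle markers 3 passed, with a summed level of 11.9 and 17.8 RPKM, and TAGLN was called higher (2.34 RPKM in WT and 6.93 RPKM in MYOCD). None of 5 endothelial and 5 blood markers passed, and CDH5, KDR, TEK, VWF, CD3E and PTPRC were at 0 in both libraries. The markers called higher in MYOCD were EPCAM, CDH2, COL1A1 and TAGLN, and no marker was called lower. The other markers of their lists were not called, among them ACTA2 with 8.28 RPKM in WT and 8.97 RPKM in MYOCD. The part of the called markers in the value of NKX2-5, which was also higher, was not tested.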

How the data were processed

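RNA of 1 WT and 1 MYOCD library of A549 cells was sequenced. The values are RPKM as the authors deposited them, per the file headers, and a key in the table names the column of each group. The submitters' processing notes name Bowtie 0.12.2, GRCh38.p12 and a mouse build, mm8, and assign no role to any. No source used here gives the counting tool, its annotation or its use of strand. The table has 57979 rows, of which 57375 identifiers were found in GENCODE 29 (GRCh38), the source of gene positions, types and exon lengths. A symbol on several rows (248 symbols, none of the 10) was taken from the row with the highest mean. Where the authors counted whole reads, low values of the libraries would stand in exact ratios; among 24502 genes above 0 in both, the most frequent ratio to 4 decimals was shared by 12 genes, so whole reads were not recovered and no count test was run.

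The log2 change used a pseudocount of 0.5 RPKM, the filter was at least 1 RPKM in at least 1 library, and 2-fold was called. The size rule was run on simulated data only as a check of the calculation, which says nothing of the precision of these libraries. Tools were Python 3.11.15, pandas 2.3.3, numpy 2.4.6 and matplotlib 3.10.9. The members and lists were chosen with earlier results of these data known, and 2 genes, not reported here, were left out of them afterwards. All 10 genes were named, and from each other list up to 8 called genes, with the most abundant added up to 6 in all, and neighbours with at least 0.1 RPKM. Chosen after their values were seen: NKX2-1, NKX2-8, GATA1, GATA2, GATA5, MEF2B, ISL1, HDAC5, HDAC7, HDAC9, TCF3, ID4, NPPA, FOXA1, FOXA2, TBX5-AS1, the cell type markers given with values and genes named at 0.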

Additional observations from a re-analysis of the deposited data

How the results depend on the processing

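No result has a replicate check, since each group is 1 library, and the RPKM hold no counts, so values under 1 RPKM have unknown precision. No paired analysis was possible because each group has 1 library. The results were recomputed under 10 alternatives. NKX2-5 was the 1 gene of the set called under all of them, with log2 changes from 1.22 to 1.43. A pseudocount cannot change the direction of a gene, and the row rule could not act on the 10 genes, none of which is on several rows. The scalings, which could, changed no direction (TBX5 at 0 throughout). HAND2 reached -1.07 with a pseudocount of 0.1 RPKM. The 3 scalings moved the log2 changes by at most 0.012. The median of the genes of the set that passed (0.48) was 0.30 when 5 RPKM in a library was asked and 0.09 over the unfiltered 10. With at least 5 RPKM, 1 cardiac target gene was called in place of 4 and 0 family relatives in place of 1. With a pseudocount of 1 RPKM, 0 family relatives were called and 1 other cardiac regulator (MYOCD) in place of 3, and with 0.1 RPKM 2 family relatives. At 1.5-fold, 6 partners were called in place of 2 and 5 family relatives in place of 1. Of the list counts and the median, 61 of the recomputed values stayed within 1.5 times the reported count or within 0.1 of the reported median.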

Other observations

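Inside MEF2D, a small RNA gene of the Y RNA class on the same strand (ENSG00000206651, 113 bases, from 156484098 to 156484210) was listed at 0 RPKM in WT and at 41.9 RPKM in MYOCD. It shares no exonic base with MEF2D, and its length is far below that of the MEF2D exons (6400 bases). The noncoding gene RP11-98G7.1 downstream of MEF2D had 0.557 RPKM in WT and 0.322 RPKM in MYOCD, and the pseudogene RPL7AP33 beside NKX2-5 had 0.124 RPKM in WT and was listed at 0 in MYOCD.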
